A study of Mus musculus with 24 samples.

Results

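The trimethylation of histone H3 at lysine 4 (H3K4me3) was compared between a pair of mouse melanoma cell lines, one wild type for Kmt2d (line 971, called WT here) and one that carries a Kmt2d mutation (line 493, called mutant). The regions described are all peaks of the H3K4me3 list of each line, 14666 in WT and 16438 in mutant, which make 31104 of the 197727 peaks in the 22 peak lists of the series. The series profiled chromatin proteins and transcription factors by CUT&RUN (a nuclease is brought to the antibody-bound sites and cuts out their DNA) to ask what the loss of KMT2D does in melanoma. Its 24 samples were 1 library per line and target, and the 2 rabbit IgG controls were not analysed here. Both lines were grown in DMEM/F12 medium with fetal bovine serum and processed with Epicypher CUT&RUN reagents, and H3K4me3 was captured with the Abcam antibody ab8580. The labels give no further allele of either line and do not say whether a line is 1 clone. With 1 line per genotype, the mutation and every other difference between the lines cannot be told apart. With 1 library per line there is no replicate check, no test was run, and every interval below covers counting error only.

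H3K4me3 marks the start sites of genes, above all those in CpG-rich DNA, and its breadth and height tend to follow the activity of the promoter. It is written by complexes built around the KMT2 and SETD1 methyltransferases (the COMPASS family), of which SETD1A, SETD1B and the Menin-bound KMT2A and KMT2B act mainly at promoters. KMT2D and KMT2C act mainly at enhancers, where they lay down the monomethyl form of the same residue.

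The 250 bases before the start of 4 genes serve as examples of promoters, each CG in capitals, 5′ to 3′ on the gene's strand. They are from the RefSeq promoter table on GRCm38.p6 (the assembly of mm10). Kmt2d carried a peak in both lines, Mtap in WT only, and Crabp1 and Col6a3 in mutant only.
Kmt2d, minus strand, chr15:98871206-98871455: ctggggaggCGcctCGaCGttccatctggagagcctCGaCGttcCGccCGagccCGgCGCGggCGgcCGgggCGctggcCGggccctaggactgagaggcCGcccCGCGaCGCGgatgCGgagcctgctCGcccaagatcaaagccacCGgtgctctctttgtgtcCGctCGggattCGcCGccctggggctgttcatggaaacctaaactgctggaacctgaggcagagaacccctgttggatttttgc
Mtap, plus strand, chr4:89137120-89137369: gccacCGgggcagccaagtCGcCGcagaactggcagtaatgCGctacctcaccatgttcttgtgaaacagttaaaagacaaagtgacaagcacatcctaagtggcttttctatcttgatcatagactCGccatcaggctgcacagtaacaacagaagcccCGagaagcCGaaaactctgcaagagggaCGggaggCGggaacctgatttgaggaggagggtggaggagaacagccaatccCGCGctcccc
Crabp1, plus strand, chr9:54764498-54764747: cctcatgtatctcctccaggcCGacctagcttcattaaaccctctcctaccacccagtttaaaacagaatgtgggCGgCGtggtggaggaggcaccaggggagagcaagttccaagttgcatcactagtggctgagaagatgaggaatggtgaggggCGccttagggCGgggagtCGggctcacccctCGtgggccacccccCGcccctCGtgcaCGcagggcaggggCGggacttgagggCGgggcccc
Col6a3, minus strand, chr1:90843972-90844221: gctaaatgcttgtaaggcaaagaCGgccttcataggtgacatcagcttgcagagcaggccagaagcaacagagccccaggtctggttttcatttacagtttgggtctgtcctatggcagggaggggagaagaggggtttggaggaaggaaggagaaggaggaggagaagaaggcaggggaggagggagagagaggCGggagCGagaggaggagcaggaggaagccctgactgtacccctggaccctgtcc
The Kmt2d stretch holds 26 CG and has a CpG ratio of 0.911, the observed number of CG over the number its C and G content would give. Crabp1 holds 12 CG (CpG ratio 0.477), Mtap 11 (0.595) and Col6a3 3 (0.172), so promoters with a peak in 1 line ranged from intermediate to poor in CpG among these examples.

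The mutant library was the deeper one. Working back from the authors' fold enrichment and p-values, it held about 5.54 M fragments (M for mega) against 2.62 M in WT, and was called at 2.21 M against 1.19 M. The median peak summit held 31 fragments in WT and 56 in mutant, or 11.8 and 10.1 per M. Over regions marked in both lines the median mutant to WT ratio of summit height per M was 0.946, and height ratios below are centred, that is divided by this median.

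Both lines marked about the same length of genome in peaks of about the same width. The mutant list held 1.12 times as many peaks as the WT list and covered 24.0 Mb against 22.3 Mb, 1.07 times as much. Its median peak was 1273 bp wide (quartiles 650 and 1981 bp) and the WT median was 1323 bp (727 and 2063 bp). Peaks under 0.5 kb made up 18.6% of the mutant list and 15.9% of the WT list. When peaks at most 1 kb apart were joined into domains, 14479 domains with a median of 1469 bp remained in mutant and 12800 with a median of 1564 bp in WT. Broad domains of 4 kb or more numbered 664 in mutant and 672 in WT. The mutant list was also thinned, that is its summits and background were scaled down and the peaks that then missed the WT threshold were dropped, with the widths of the others kept. Scaled to the depth at which WT was called, the ratio of peak numbers was 1.08 and that of median peak widths 0.993, and scaled further to the depth of the WT library they were 1.06 and 1.01.

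Peak summits lay at gene ends equally often in both lines. A gene end is the 1 kb on either side of the first or last base of a protein-coding RefSeq gene, which takes in the start and the end because the gene table gives no strand. The share was 60.3% in WT (95% Wilson interval 59.5% to 61.1%) and 60.3% in mutant (59.6% to 61.1%). A further 19.6% of WT and 18.3% of mutant summits lay 1 to 5 kb from a gene end, and 20.04% and 21.4% lay beyond 5 kb. The equality depends on the window: within 0.5 kb the share was 33.5% in WT and 39.5% in mutant, and within 2.5 kb it was 74.1% and 72.4%. Positions relative to the nearest start site were read only for summits within 1 kb of one. Among these, summits of peaks common to both lines sat a median of 362 bp downstream in WT (n = 8306) and 301 bp in mutant (n = 8264). Within the same distance, summits of peaks of 1 line lay upstream of the start more often. WT-only summits (n = 182) had a median position of 147 bp with quartiles of -309.5 and 469.75 bp, and 63.2% were downstream against 84.4% of the shared ones. Mutant-only summits (n = 1050) had a median of 124.5 bp with quartiles of -86.25 and 323.5 bp, and 69.0% were downstream against 87.4%.

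Most peaks were common to both lines, and those that were not were short and low. Of the WT peaks, 91.7% overlapped a mutant peak by at least 1 bp (91.2% to 92.1%), and 79.8% of the mutant peaks overlapped a WT peak (79.2% to 80.4%). This left 1224 WT-only and 3325 mutant-only peaks. WT-only peaks had a median width of 381.5 bp and 9 fragments at the summit, against 1425 bp and 34 fragments for the shared WT peaks. Mutant-only peaks measured 414 bp and 16 fragments, against 1507 bp and 68 fragments. By length, 97.1% of the WT peak bases and 92.5% of the mutant ones lay in shared peaks.

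**Figure D1:**
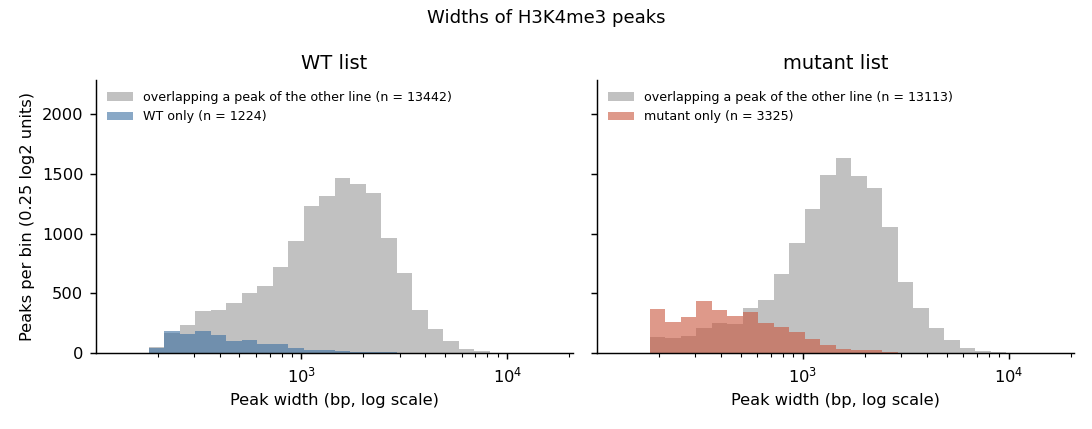
Widths of the H3K4me3 peaks of each line on a log scale, as numbers of peaks per bin, for peaks overlapping a peak of the other line (grey) and peaks of that line only (colour). The 1224 WT-only and 3325 mutant-only peaks lie mostly under 1 kb, below the bulk of the shared peaks.

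Sharing was higher among wide and tall peaks. Under 0.5 kb, 65.3% of WT and 34.8% of mutant peaks were shared, from 1 to 2 kb 98.5% and 95.7%, and at 4 kb or more 99.3% in both lists. In the lowest decile by summit height (median 7 fragments in WT and 12 in mutant) 52.1% of WT peaks and 25.7% of mutant peaks were shared. In the top decile the shares were 99.9% and 99.8%. From the sixth decile up, at least 98.6% of the peaks of either list were shared.

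**Figure D2:**
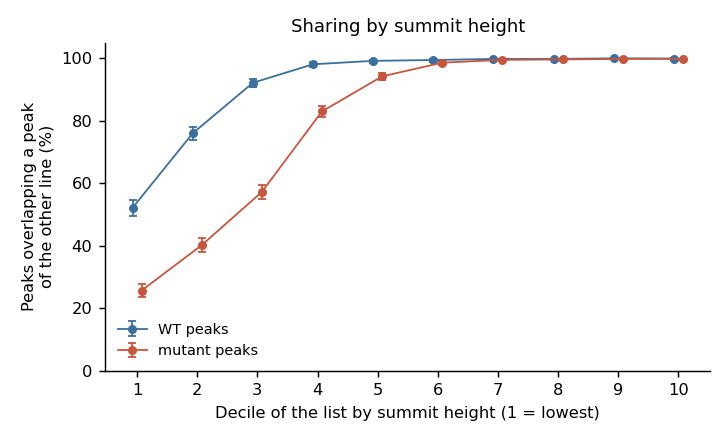
Percent of peaks overlapping a peak of the other line, by decile of each list ranked by summit height, with 95% Wilson intervals for counting error only. Sharing runs from 52.1% to 99.9% for WT peaks and from 25.7% to 99.8% for mutant peaks.

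Depth sets how many of the line-only peaks could have been seen in the other library. At the median height ratio, a mutant-only peak would have held a median of 8 fragments in the WT library, where the lowest called summit held 5. Of the 3325 mutant-only peaks, 158 (4.75%) would have held 20 or more. In the other direction, WT-only peaks would have held a median of 18 fragments in mutant, where the lowest called summit held 8, and 482 of 1224 (39.4%) would have held 20 or more.

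The line-only peaks of WT and mutant lay in different places. Among WT-only peaks 63.2% lay beyond 5 kb from any gene end and 14.8% at a gene end. Among mutant-only peaks 40.9% lay beyond 5 kb and 37.2% at a gene end. Read by class, 2.05% of the WT peaks at gene ends and 26.3% of those beyond 5 kb were WT only, and 12.5% and 38.7% of the mutant peaks were mutant only.

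Regions were the joined domains of both lines, 15255 in all, of which 11896 were marked in both, 821 in WT only and 2538 in mutant only. The median mutant to WT width ratio over the shared regions was 1.01 (quartiles 0.886 and 1.20). Past 2-fold, 625 regions (5.25%) were wider in mutant and 234 (1.97%) were narrower. Past 2-fold in centred height, 297 (2.497%) were higher and 257 (2.16%) lower. Across the 11896 regions Pearson's r of log width was 0.827 and of log height 0.843, as a description of points that share libraries and depth.

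The widest regions were largely the same in both lines. The width of a region in a line is summed over the domains it holds there. Of the 500 widest regions of each line, 368 (73.6%) were common, and of the 100 widest, 64. The widest of all, chr15:85663670-85687804 (mm10), contained no listed gene, lay 47.1 kb from Ppara and measured 22966 bp in WT and 23804 bp in mutant. Next came Nr2f2, an orphan nuclear receptor, with 16776 and 16809 bp. Zeb2, a transcription factor of melanocyte and mesenchymal states, had 15646 and 15797 bp, in 1 domain in WT and in 2 in mutant, the wider of 10278 bp. Cdkn1b, which encodes the cell cycle inhibitor p27, had 14152 and 13865 bp. A stretch inside Tfap2a, which encodes a factor of neural crest and pigment cells, measured 13092 bp in WT and 11898 bp in mutant. Nfib and Cdkn2c, a second cell cycle inhibitor, were also among the widest of WT, and Cdkn2c too was split into 2 domains in mutant, the wider of 7216 bp against 12391 bp in WT. In summed width all of these regions differed by less than 1.2-fold between the lines.

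Some of the 10 widest regions of the mutant line were not among the 10 widest of WT. Zfp503, a zinc finger repressor, measured 2201 bp in WT and 14141 bp in mutant, although its summit was similar, with 50 and 124 fragments and a centred height ratio of 1.24 (95% exact interval 0.886 to 1.76). A region inside Lmna, which encodes lamin A, measured 9083 bp in WT and 13267 bp in mutant.

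At gene ends, 4394 shared regions were at least 2 kb wide in 1 line, and 95 of them (2.16%) were 2-fold or more wider in mutant and 43 (0.979%) narrower. The highest ratio belonged to Wnt11, a secreted signalling ligand, with 305 bp and 10 fragments in WT and 4553 bp and 36 fragments in mutant. Rasgrf1, a Ras activator, had 214 bp and 7 fragments in WT and 3066 bp and 83 fragments in mutant, a centred height ratio of 5.93 (2.75 to 15.2). Gfra2, a receptor for the GDNF family, measured 226 and 2794 bp, with a ratio of 5.21 (2.41 to 13.4). Isl1, a developmental homeobox factor, measured 354 and 4223 bp, with 12 and 69 fragments and a ratio of 2.88 (1.55 to 5.83). The WT summits of these 4 genes, at 7 to 12 fragments, were all near the floor of the list. The other 6 of the 10 highest ratios were Gfi1, Kcnn1, Csf2ra, Pde8a, Fgf9 and Bnc2, each called in WT as 1 peak of 242 to 312 bp.

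The lowest width ratios belonged to 10 other genes. Vcam1, a cell adhesion receptor, measured 3371 bp with 38 fragments in WT and 440 bp with 17 fragments in mutant, a centred height ratio of 0.224 (0.118 to 0.406). Itga3, an integrin subunit, had 2590 bp and 56 fragments in WT and 538 bp and 17 in mutant (0.152, 0.0827 to 0.265). Flnc, which encodes the actin cross-linker filamin C, had 3375 bp and 37 fragments against 702 bp and 14 (0.189, 0.0945 to 0.358). Pkp2, a desmosome protein, and Fam181b were also lower in height, at ratios of 0.397 and 0.306. For Aig1 the height ratio was 1.00 and for Bpgm, a red cell enzyme of glycolysis, 0.821 (0.543 to 1.26), so width alone set those apart.

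Ranked by height rather than width, a ranking chosen after the values were seen, the highest shared gene-end regions again included Rasgrf1 and Gfra2, and with them Gpnmb, a melanosome glycoprotein. Gpnmb held 9 fragments in WT and 103 in mutant, a centred ratio of 5.72 (2.90 to 12.9). The lowest were Tor4a, with 50 fragments in WT and 11 in mutant (0.110, 0.0516 to 0.214), and Pcolce, a collagen processing factor, with 48 and 12 (0.125, 0.0604 to 0.239). S100b, a calcium-binding protein of Schwann cells and melanocytes, held 33 and 13 (0.197, 0.0951 to 0.384). Lfng, a Notch glycosyltransferase, held 62 and 25 (0.202, 0.121 to 0.326), and the chemokine gene Cxcl12 27 and 11 (0.204, 0.0912 to 0.424).

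Counted by gene, 10668 of 21887 protein-coding genes had a gene-end peak in both lines, 119 (0.544%) in WT only, 1114 (5.09%) in mutant only and 9986 in neither. With the further demand that the other line had no peak within 5 kb of the gene, 76 WT-only and 853 mutant-only genes remained. Of the 1114 mutant-only genes, 1039 were mutant only also after thinning to the called depth of WT, 998 after thinning to the depth of the WT library, and 707 were so when both lists were held to a −log10 q of at least 5. At the genes marked in both lines, the summit was 2-fold or more higher in mutant at 252 (2.36%) and lower at 143 (1.34%). Genes marked in neither line can still have a peak at an inner start site: of the 9986, 593 had one in WT and 669 in mutant.

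The strongest WT-only gene was Mtap, a methionine salvage enzyme that neighbours the tumour suppressor Cdkn2a. Its region at chr4:89136663-89141384 was 4722 bp wide with 81 fragments in WT, where the median ratio would give 162 fragments in mutant, and the mutant list had no peak there. Acvrl1, a receptor of the TGF-beta family, held 33 fragments in WT (66 expected in mutant). Akr1c18, Cavin4 and Mgst1, a glutathione transferase, held 25 each (50 expected). Fgd3 and Ppp1r3d followed with 24 each. All of these expected heights are well above the lowest mutant summit of 8 fragments.

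Mtap lay in the longest run of WT-only peaks, 10 peaks over 4385 kb of chromosome 4 from 88950848 to 93335806 with no shared peak among them. The mutant list had no H3K4me3 peak over 527.8 kb around Mtap (chr4:88942236-89470018), where the WT list had 9. Neither line had a gene-end peak at Cdkn2a or Cdkn2b. Other targets did have mutant peaks in that stretch: the 12 mutant lists held 30 peaks there, 8 of the lists at least 1, and the 10 WT lists held 75. Right beside that stretch the mutant line had a run of its own, 8 mutant-only peaks from 89470019 to 91400164 over Dmrta1, Zfp352 and Elavl2. This mutant run lay inside the span of the WT run. That span held 8 mutant peaks, and 9 of its 10 WT peaks lay in the stretch around Mtap.

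The widest mutant-only region lay at Col6a3, a collagen VI chain. The region at chr1:90837831-90844188 was 6358 bp wide and held 124 fragments (62 expected in WT), and 3 other targets had a peak there in the mutant line. Crabp1, a retinoic acid binding protein of the neural crest, held 74 fragments (37 expected in WT). Daam2, a Wnt-linked formin, held 71, Greb1 70, Klhl1 67 and Nkd2, a Wnt inhibitor, 63, each with at least 31.5 expected in WT. Asxl3, a Polycomb-associated protein, held 64. Among the widest mutant-only regions were also Moxd1 (4230 bp, 45 fragments), a monooxygenase of the neural crest lineage, S1pr3 (4098 bp, 61 fragments), a lipid receptor, and Sox10 (3828 bp, 23 fragments).

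Away from gene ends, the highest WT-only peak lay inside Ston1 (45 fragments, 90 expected in mutant). The widest WT-only region, 9124 bp with 40 fragments, lay inside Nkain2, and 2 other WT lists but no mutant list had a peak in it. In mutant the highest were inside Ppfibp2 (63 fragments) and Sorbs3 (60), and neither overlapped a peak of any other list. A mutant-only peak 102 kb from Kitl, the ligand of the pigment cell receptor KIT, held 54 fragments and overlapped mutant Menin and TFAP2A peaks. This peak lies on the distal part of chromosome 10, where heights of all 3 targets were higher in mutant as a whole, as given below. A pair of runs held 9 mutant-only peaks each, the highest number, 1 over 914 kb of chromosome 1 with Steap3, C1ql2, Marco and En1 and 1 over 71.5 kb of chromosome 8 with no protein-coding gene. A run of 6 lay at Foxp2, a forkhead factor.

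Gene lists by role showed which promoters were alike and which were not. The lists were chosen with earlier results of these data known, and their counts are read against the shares of all genes: 49.3% had a WT peak, 53.8% a mutant peak, 5.09% a mutant-only and 0.544% a WT-only peak.

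The writers, erasers and readers of the mark itself were marked in both lines. Of 19 genes of the COMPASS complexes 17 had a peak in both lines and none in 1 line only, with centred height ratios from 0.727 to 1.49. At its gene ends Kmt2d (chr15:98831669-98874077) held 53 fragments in WT and 101 in mutant, a ratio of 0.953 (0.677 to 1.35). The listed Kmt2d start lies inside these outer bounds, and both lines had a peak within 1 kb of it. The height ratio is not that of the start, and neither value says anything about the protein. Kmt2a held 66 and 96 fragments (0.727, 0.526 to 1.01), Setd1a 41 and 118 (1.44) and Men1, which encodes Menin, 61 and 157 (1.29). The WT height of Setd1a came from a peak of 886 bp in a domain of 2315 bp, its mutant height from a peak of 2164 bp. Men1 lies on chromosome 19, where the median ratio was also 1.29, as given below. Of the other 2, Dpy30 had a start-site peak in both lines and Ash2l had 1 peak near it in each. Of 6 H3K4 demethylase genes 5 were marked in both and Kdm5d, on the Y chromosome, in neither. Of 13 readers 12 were marked in both, and the lowest ratio was that of Chd1, a chromatin remodeller, with 46 and 47 fragments (0.511, 0.333 to 0.784).

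Most pigment cell genes were unmarked in both lines. Of 19, 6 had a peak in both lines, 2 (10.5%) in mutant only and 11 in neither. Mitf, the lineage's master regulator, held 24 and 58 fragments (1.21, 0.739 to 2.03). Sox10, the factor that drives Mitf, had no WT peak within 5 kb and held 23 fragments in mutant, 11.5 expected in WT. Rab27a, a melanosome transport protein, held 21 fragments in mutant, and WT had a peak within 5 kb of it but not at its ends. Pmel, the melanosome fibril protein, held 56 and 195 (1.74, 1.29 to 2.39), and Erbb3, a neuregulin receptor, 61 and 226 (1.85, with a lower bound of 1.39). Both lie on the distal part of chromosome 10, where heights were higher in mutant as a whole, as given below. The late pigment enzymes Tyr, Tyrp1 and Dct had no gene-end peak in either line, so several defining pigment markers were unmarked in both.

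Neural crest and Schwann genes were mostly marked in both lines. Of 14, 9 were shared and 2 (14.3%) were mutant only: Ngfr, the nerve growth factor receptor, with 54 fragments, and Cdh19, a Schwann cell cadherin, with 42. Foxd3, an early neural crest factor, held 17 and 89 fragments (2.62, 1.55 to 4.69), and Sox9 and Sox2 had domains of 1786 and 6176 bp in WT and 6415 and 9728 bp in mutant. S100b went the other way, as given above. Mesenchymal genes were marked almost throughout: 17 of 18 in both lines and Snai1, an EMT factor, in mutant only with 30 fragments. WT had a peak within 5 kb of Snai1 but not at its ends, and with gene-end windows of 2.5 kb all 18 were marked in both lines. Zeb1 held 14 and 91 fragments (3.25, 1.84 to 6.18). The ratios were 0.70 for Vim (0.458 to 1.08), 0.766 for Twist1 (0.551 to 1.07) and 0.735 for Tead1 (0.554 to 0.980). Of these intervals only that of Tead1 lay below 1. The WT height of Zeb1 came from a peak of 257 bp in a domain of 3836 bp. Its mutant height came from a peak of 4238 bp in a domain of 5621 bp, so the ratio sets unlike parts of the domains side by side. With gene-end windows of 0.5 kb Zeb1 was mutant only.

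Developmental regulators held the largest share of mutant-only members. Of 33, 7 were marked in both lines, 9 (27.3%) in mutant only and 17 in neither. The 9 were Hoxa3, Hoxa5, Hoxd13, Pax6, Gata2, Nkx6-1, Olig2, Foxa2 and Sim1, homeobox, GATA, helix-loop-helix and forkhead factors that pattern embryonic tissues. Their summits held 9 to 31 fragments, with Foxa2 (31) and Nkx6-1 (27) the highest and Pax6 (9) and Hoxa5 (10) the lowest. None would have held 20 or more in WT at the median ratio, and at Pax6 and Gata2 the WT list had a peak within 5 kb of the gene. The WT peak at Gata2 lay at an annotated start site inside the outer bounds, so Gata2 is mutant only at its ends and not at every start. After thinning to the called depth of WT 8 were mutant only, after thinning to its library depth 7 were, and 4 were when the mutant list was held to as many peaks as the WT list. Gata6 had the lowest ratio of the shared members, with 19 and 15 fragments (0.395, 0.187 to 0.820).

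Control lists were mostly marked or unmarked alike in both lines, although heights of single genes differed. Of 20 housekeeping genes 19 were marked in both, with ratios from 0.551 (Polr2a, 0.349 to 0.873) to 1.83 (Tbp, 1.25 to 2.74). The WT height of Tbp came from a peak of 1427 bp in a domain of 4465 bp. Its mutant height came from a peak of 4265 bp, so the ratio sets unlike parts side by side. Of the markers of other cell types, 4 of 10 fibroblast, 2 of 8 keratinocyte, 1 of 8 blood and 1 of 6 endothelial genes had a peak in both lines. Dsp, a desmosome gene and 1 of the 8 keratinocyte genes (12.5%), was mutant only. Ptprc, the common leukocyte antigen, and Pecam1, of endothelium, had none in either line. The blood marker with a peak was Cd79a and the only marked one of 14 tissue-restricted genes was Apoa2. Gene-end windows can reach a neighbour's promoter, and its part in these peaks was not tested. Of 9 genes of melanoma models 6 were marked in both, Mtap in WT only, and Cdkn2a and Cdkn2b in neither.

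**Figure D3:**
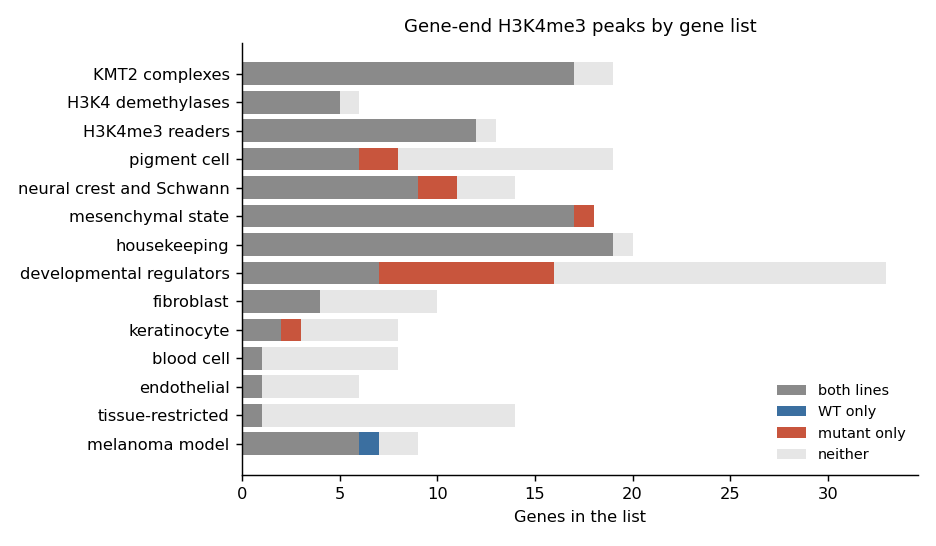
Number of genes of each list with a gene-end H3K4me3 peak in both lines, in WT only, in mutant only or in neither. Mutant-only members are 9 of 33 developmental regulators, 2 of 19 pigment cell, 2 of 14 neural crest and Schwann, 1 of 18 mesenchymal and 1 of 8 keratinocyte genes. The only WT-only gene is Mtap.

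CpG content differed between the promoters of mutant-only and WT-only peaks. The promoter table gave 21263 start sites of 17492 genes, and a start site was called CpG-rich when the 300 bases from 250 before to 50 after it had a GC content of at least 50% and a CpG ratio of at least 0.6. CpG-rich sites made up 76.3% of the 10699 start sites marked in both lines and 8.77% of the 9410 marked in neither, with 45.1% over all. Mutant-only start sites (1007, 4.74% of all) were CpG-rich in 57.6% (54.5% to 60.6%) and WT-only start sites (147, 0.691%) in 21.1% (15.3% to 28.4%). The intervals of the 2 classes did not overlap, and the WT-only share ran up to 34.6% under the other peak filters. Of start sites without a WT peak, 0.532% (11 of 2066) had a mutant peak in the lowest decile by CpG ratio and 43.3% (78 of 180) in the top decile. This share was already 41.0% in decile 7 and did not rise steadily after it. As a share of all start sites, mutant-only sites made up 0.517% in the lowest decile, 8.75% in decile 6, the highest, and 3.67% in the top decile.

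**Figure D4:**
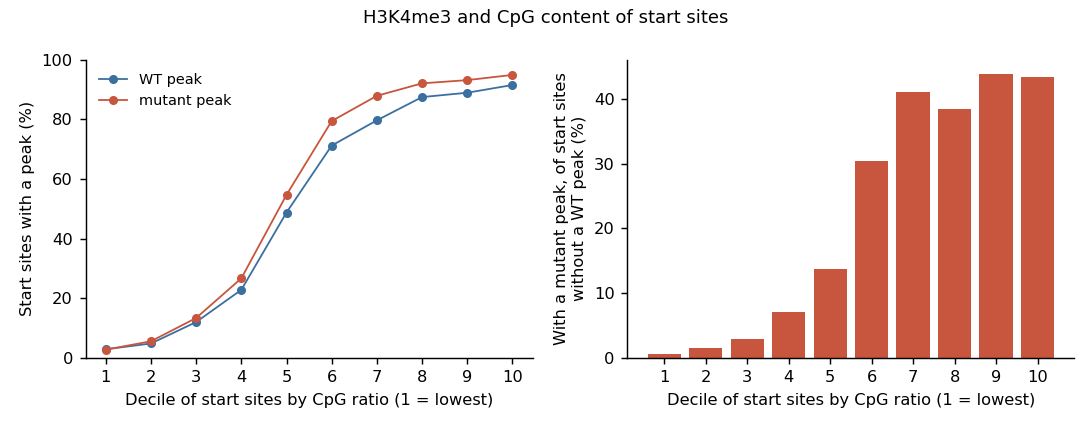
Left, percent of start sites with a WT or a mutant H3K4me3 peak by decile of CpG ratio. Right, percent with a mutant peak among start sites without a WT peak, 0.532% (11 of 2066) in the lowest decile, 41.0% in decile 7 and 43.3% (78 of 180) in the top decile.

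Short sequence motifs were searched in the same 300 bases on both strands, any overlap allowed. CCGCCC, the core of the SP1 site, was in 69.2% of start sites marked in both lines, 61.4% of mutant-only, 37.4% of WT-only and 46.2% of all sites. TATAAA, the TATA box, was in 6.03%, 6.85%, 12.9% and 12.6%, and TGACTCA, the AP-1 site, in 2.98%, 4.07%, 10.2% and 4.66%. GCCNNNGGC, the TFAP2 site, was in 26.8%, 26.0%, 21.1% and 19.9%. The intervals of the mutant-only and the shared sites overlapped for the TATA box, the AP-1 site and the TFAP2 site but not for the SP1 core (58.3% to 64.3% against 68.3% to 70.1%). These are matches of letters, not sites of binding.

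Peaks of Menin and TFAP2A lay on a smaller share of the line-only than of the shared H3K4me3 peaks. In the WT line, peaks of SMARCC1 and ARID1A, both SWI/SNF subunits, and of UTX lay on a larger share of the WT-only ones. Shared peaks were the wider ones, as given above, and the part of width in these shares was not tested. Menin of the same line lay on 71.9% of shared and 23.2% of mutant-only mutant peaks, and on 60.2% of shared and 38.0% of WT-only WT peaks. TFAP2A lay on 57.9% and 22.6% of the mutant peaks and on 41.2% and 17.6% of the WT peaks. KMT2D, profiled in WT, lay on 15.4% of shared (14.8% to 16.1%) and 13.6% of WT-only WT peaks (11.8% to 15.6%), shares whose intervals overlap. Its direction changed with location, with 14.8% and 9.94% at gene ends and 14.1% and 17.1% beyond 5 kb. The intervals overlapped in both places. UTX of the WT line lay on 17.01% of shared (16.4% to 17.7%) and 21.1% of WT-only peaks (18.9% to 23.5%). At gene ends UTX lay on 16.2% and 14.4%, and in mutant on 14.5% of shared and 8.57% of mutant-only peaks. SMARCC1 of the WT line lay on 3.72% of shared and 18.2% of WT-only peaks, and ARID1A on 23.9% and 32.0%, although at gene ends ARID1A lay on 23.5% and 21.0%. The other SWI/SNF subunits, with short WT lists, lay on a smaller share of the WT-only peaks: ARID2 on 1.70% and 1.14%, PBRM1 on 2.37% and 0% (0 of 1224 peaks), and BRD9 on 0.283% and 0.0817%. In mutant, SMARCC1 lay on 0.984% and 1.41%, from a list of 2910 peaks against 11507 in WT, and ARID1A on 34.8% and 17.8%. No other list had a peak on 57.3% of the mutant-only, 36.8% of the WT-only and about 13% to 14% of the shared peaks (13.2% in mutant, 13.8% in WT).

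Heights differed by chromosome in a pattern that was not specific to H3K4me3. The median centred height ratio over shared regions was 1.29 on chromosome 19 and 1.17 on chromosome 10, and 0.953 to 1.02 on the other autosomes. On chromosome 10 the higher ratios lay in the distal part: over pairs of overlapping peaks the median was 1.304 from 80 Mb on and 1.01 before, a boundary set after the windows were seen. The same measure in the other targets with deep lists gave 1.20 on chromosome 19 and 1.27 on distal chromosome 10 for Menin, 1.33 and 1.33 for ARID1A, and 1.26 and 1.33 for TFAP2A. On the other autosomes these ratios ran from 0.933 to 1.04 over all 4 targets. Input DNA was not analysed here, so more copies of the DNA and more mark per copy cannot be told apart.

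**Figure D5:**
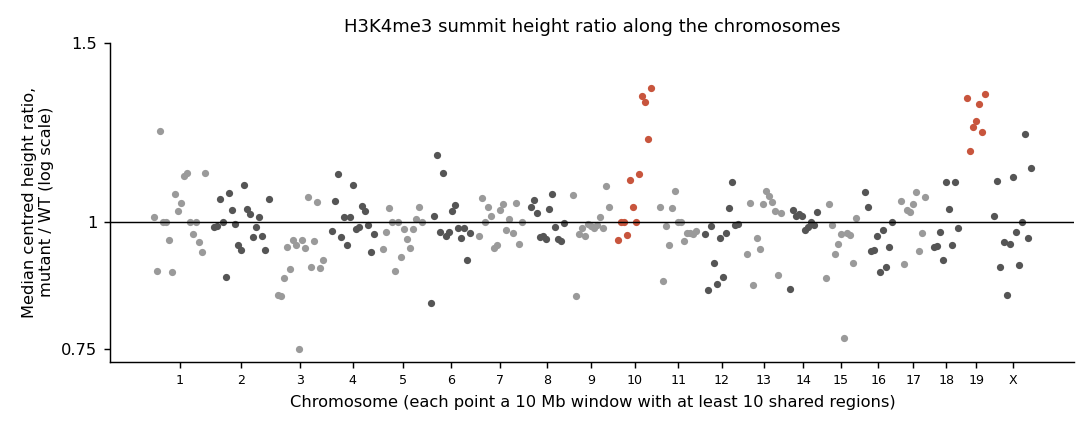
Median centred mutant to WT ratio of H3K4me3 summit height over shared regions in 10 Mb windows with at least 10 such regions, along chromosomes 1 to 19 and X, on a log scale. Chromosomes 10 and 19 are in colour, and chromosome 19 and the distal windows of chromosome 10 lie above most other windows, with medians of 1.29 over chromosome 19 and 1.17 over chromosome 10.

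Those 2 chromosomes also had many mutant-only peaks, 148 of 600 mutant peaks on chromosome 19 and 204 of 862 on chromosome 10. Without them the ratio of peak numbers was 1.12, 80.1% of the mutant peaks were shared and 989 genes were mutant only, so the totals above did not rest on them. On X the mutant list had 1.25 times as many peaks as the WT list, more than on any autosome (1.08 to 1.19), and 71.3% of them were shared. Shared X peaks were lower than autosomal ones in both lines, with medians of 8.01 fragments per M in WT and 7.58 in mutant, and their centred height ratio was 1.00. Xist, the RNA that coats an inactive X, was marked in both lines, with summits of 31 fragments in WT and 49 in mutant, or 11.8 and 8.85 per M. The Y list held 3 peaks in WT and 14 in mutant, and none of 6 listed Y genes had a gene-end peak in either line. Of the 14, 13 lay between 90 and 100 Mb, 8 of them in 1 run of 48.6 kb (chrY:90791915-90840492). Whether these peaks come from DNA found only on Y was not tested.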

How the data were processed

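CUT&RUN peak lists of H3K4me3 were used, 1 library from each of the WT and mutant lines. Per the submitters' processing notes the tools were FastQC, MultiQC, Bowtie2 and MACS2 and the build mm10; versions, settings and the control of the caller were not stated in those notes. A deposited peak has a position, the authors' score (−log10 q times 10, as a whole number), a fold enrichment (a ratio), and the deposited −log10 p and −log10 q. The lowest −log10 q was 1.31 in WT and 1.35 in mutant.

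All peaks were kept. Summit fragments, background and depth were worked back from the deposited fold and −log10 p values, taking a genome size of 1870000000 bp and the shortest peak (208 bp in WT, 183 bp in mutant) as fragment length; fragments were found for all mutant peaks and all but 1 WT peak, and at background level 100% (WT) and 99.9% (mutant) came within 0.05 of whole numbers. Ratios between lines do not depend on the genome size. Thinning scaled the summits and background of the mutant list by 0.536 (the ratio of called depths) or 0.473 (that of library depths) and dropped peaks under the lowest −log10 p of WT; widths were not called again. On simulated data 2990 of 2998 and 2990 of 2992 summits were recovered.

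Genes were the 21887 protein-coding genes of RefSeq GRCm38.p6 outside the mitochondrion. A gene was marked when a peak overlapped its 1 kb gene-end window, and a peak was placed by its summit. Shares carry 95% Wilson intervals and height ratios exact (Clopper-Pearson) intervals. PCR copies were not removed by molecular identifiers as far as the sources say, so both cover counting error only. Of 204 genes in 15 lists, 203 were found (Xist is not protein-coding), 140 of them with a start-site entry.

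The members, lists and rules were chosen with earlier results of these data known. Genes could be named as list members; as the 10 widest regions, the 10 widest of 1 line only, and the 10 highest and lowest width ratios; as the 10 line-only genes and 10 distal peaks with the highest fold enrichment; as the 5 longest runs of line-only peaks; and Kmt2d. Not every gene these rules pick is reported here. Rankings by height were added after the values were seen. Scripts ran under Python 3.11.15 with SciPy 1.17.1, pandas 2.3.3, NumPy 2.4.6 and, for figures, Matplotlib 3.10.9.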

Additional observations from a re-analysis of the deposited data

How the results depend on the processing

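No paired analysis was possible because each line has 1 library, and for the same reason no library could be left out. Of 104 alternative values, 73 kept their direction and stayed within 1.5 times (counts, ratios) or within the counting interval (percents). The alternatives by location overlap, by library depth, without chromosomes 10 and 19, and for the CpG and developmental gene results were chosen after seeing the data. With both lists held to a −log10 q of at least 5, 96.6% of WT peaks were shared, gene ends held 66.8% of WT and 65.8% of mutant peaks, and 33.1% of WT-only start sites were CpG-rich. With equal numbers of peaks the ratio of median peak widths turned to 1.06, 89.1% of WT and 85.5% of mutant peaks were shared, 64.1% of mutant peaks lay at gene ends, WT-only genes numbered 209, 34.6% of WT-only start sites were CpG-rich, and 4 developmental regulators were mutant only; this filter removes the lowest mutant peaks by construction. Thinned to the called depth of WT, 90.8% and 81.5% were shared, 61.6% of mutant peaks lay at gene ends and 29.3% of WT-only start sites were CpG-rich; thinned to its library depth these were 90.2%, 82.3%, 62.2% and 31.4%, and the ratio of median peak widths turned to 1.01. Without regions called in 15 or more lists 32.2% of WT-only start sites were CpG-rich. Requiring an overlap of 50% of the shorter peak gave 90.4% and 78.7% shared. The gene-end shares of WT and mutant were 33.5% and 39.5% within 0.5 kb, 74.1% and 72.4% within 2.5 kb, 57.9% and 56.7% with start sites only, and 70.6% and 68.1% by any overlap of the peak. Apart from settings whose construction sets the value, the cause was not tested. The WT library was the shallower. Thinning dropped 591 mutant peaks at the called depth of WT and 911 at its library depth. Peaks were not called again at equal depth, and the part of depth in the mutant-only peaks was not tested further.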
